A study of Mus musculus with 4 samples.

Results

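The genes of the proteasome are described here for ILC2s (innate lymphoid cells of group 2), as their RNA stood in bronchoalveolar lavage (BAL) fluid of mice given IL-33 or chronic house dust mite (HDM) extract. Members were chosen by gene symbol alone, as every symbol that starts with *Psma* to *Psmg* and goes on with a digit, which gave 50 of the 24537 genes measured. They comprised 9 genes of the 19S base, 8 of the 19S lid, 8 of the 20S alpha ring, 7 of the constitutive 20S beta ring, 3 immunoproteasome subunits (*Psmb8*, *Psmb9* and *Psmb10*), 3 genes of the activator PA28, 7 assembly chaperones, *Psme4* and *Psmf1*, and the thymus subunit *Psmb11*. A further 2 genes matched by symbol only: *Psmc3ip*, a factor of meiotic recombination, and *Psme2b*, a copy of *Psme2* whose reads cannot be told apart with certainty from those of its parent.

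RNA was sequenced from 4 libraries, 2 from mice that received IL-33 and 2 from mice that received chronic HDM. IL-33, an alarmin that activates ILC2s directly, was given 3 times at 0.5 µg, whereas HDM was given at 25 µg, 3 times a week for 5 weeks, and in both models cells were taken 1 day after the final challenge. All mice were 8 to 16 weeks old C57BL/6 GATIR animals, which carry an IRES-YFP reporter in the *Gata3* locus, and the sort took cells that were Lineage-, Sca-1+ and YFP+ as ILC2s. The labels give the genotype as Gata3-YFP/YFP for IL-33 and Gata3-YFP/WT for HDM, and the populations as CD25High for acute IL-33 and CD25Low for chronic HDM, while the methods speak of homozygous mice only and of no CD25 gate in this sort. Treatment, its duration, reporter dosage and CD25 label therefore cannot be told apart. The number of mice behind each library is not given in the sources used here, so the tests rest on a spread between libraries that can be technical.

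The proteasome is the protease complex that degrades proteins tagged with ubiquitin. Its 20S core is a barrel of alpha and beta rings with the proteolytic sites inside, and the 19S cap on its ends recognizes, unfolds and feeds in the substrate. In cells of the immune system, and after interferon-γ in others, the inducible subunits *Psmb8*, *Psmb9* and *Psmb10* take the place of *Psmb5*, *Psmb6* and *Psmb7* in newly built cores, and PA28 made of *Psme1* and *Psme2* can sit where the cap would, an arrangement best known from the supply of peptides to MHC class I.

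Depth lay between 10696040 and 12054784 reads in genes after IL-33 and between 15650670 and 16092265 after chronic HDM. 45S ribosomal RNA took 3.45% to 4.95% of these reads after IL-33 and 17.4% to 25.4% after chronic HDM, and values are given as deposited with these reads counted in the scaling, in RPKM (reads per kilobase of exon, scaled to the mapped reads of the library). The 11 ILC2 markers summed to 1541 to 1562 RPKM after IL-33 and 1262 to 1360.1 RPKM after chronic HDM, but without the cytokine gene *Il5* they summed to 824 to 915 RPKM after IL-33 and 1117 to 1209 RPKM after chronic HDM. Of these 11 markers 4 were higher in both IL-33 libraries and 6 in both HDM libraries, beside 41.7% and 23.5% of all genes tested. *Gata3* itself, the gene of the reporter, stood at 14.9 and 18.9 RPKM in IL-33 libraries, against 216 and 195 RPKM in HDM libraries. Macrophage markers summed to 284 to 1242 RPKM after IL-33 and 3105 to 8503 RPKM after chronic HDM, and *Lyz2* and *Chil3* made up most of each sum. *Lyz2* had 70.2 and 17.2 RPKM in IL-33 libraries, against 933 and 2259 RPKM in HDM libraries. *Chil3* had 1155 and 261 RPKM in IL-33 libraries, against 2144 and 6162 RPKM in HDM libraries. Of the 10 macrophage markers 5 were higher in both HDM libraries, beside 23.5% of all genes tested, and *Fcgr1* was at 0 in all 4 libraries. *Cd4*, *Cd8a* and *Cd5* of T cells and *Ms4a1* and *Pax5* of B cells were at 0 throughout, but *Cd3g* of the T cell list had 76.0 and 101 RPKM in IL-33 libraries, against 68.8 and 83.3 RPKM in HDM libraries, and *Cd79b* of the B cell list had 38.4 and 27.4 RPKM in IL-33 libraries, against 8.74 and 6.67 RPKM in HDM libraries (log2 fold change 1.95, adjusted p = 0.019, limma). *Mcpt8*, a protease of basophils, had 45.8 and 39.2 RPKM in IL-33 libraries and 0 in both HDM libraries. Of the same list, *Fcer1a* had 4.12 and 2.17 RPKM in IL-33 libraries and 0 in both HDM libraries. *Cpa3* overlapped, with 2.23 and 1.72 RPKM in IL-33 libraries, against 0 and 2.87 RPKM in HDM libraries, and *Ms4a2* and *Prss34* were at 0 in all 4. The part of these differences in the results was not tested, and in such bulk RNA fewer cells of a type and less RNA per cell cannot be told apart.

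Most proteasome genes had more RNA after IL-33, with larger folds in the 19S cap than in the 20S core and small ones in *Psmb9*, *Psmb10*, *Psme1* and *Psme2*. The members took 1.23% and 1.18% of the reads in genes in the IL-33 libraries, against 0.680% and 0.600% in the chronic HDM libraries. With 45S left out of the totals, these shares were 1.29% and 1.22% in IL-33 libraries, against 0.823% and 0.805% in HDM libraries. Of the 50 members, 48 had a mean of at least 2 RPKM and were tested, and *Psma8*, the alpha subunit of the testis (0 RPKM in all libraries), and *Psmb11* (0 RPKM except 0.013 in HDM replicate 2) were not. Both IL-33 libraries were above both HDM libraries for 41 members, or 85.4% of those tested, against 41.7% of all genes tested, and 1 member, *Psme2b*, was below in both, against 23.5% of all genes tested. The median log2 fold change over the tested members, taken as IL-33 over chronic HDM on RPKM + 1, was 0.999, against 0.28 over the 9523 genes tested.

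A gene was called where limma, fitted to all 9523 genes, placed the adjusted p below 0.01 and the size of the log2 fold change above 1, which 2.8% of all genes met in the direction of IL-33 and 0.536% in that of chronic HDM. Of the members, 5 were called higher after IL-33, all of them subunits of the 19S cap. After chronic HDM 0 were called higher, and limma also gave 0 there at an unadjusted p under 0.05. Of all 9523 genes, 3499 were under that limit in either direction, a share against which each unadjusted count below is to be read. limma-voom called 0 of the 9523 genes in either direction, so its count of 0 says nothing of the members or of any list below. At an adjusted p under 0.05, with the same limit on the fold, 20 members were higher after IL-33, against 13.8% of all genes, and 0 after chronic HDM, against 4.78% of all genes. The number of calls moved with the settings over all genes and not only over the members: without IL-33 replicate 1 or without IL-33 replicate 2 it was 0, as for all 9523 genes, and it was 23 without HDM replicate 1 and 22 without HDM replicate 2, where 16.3% and 19.7% of all genes were called higher after IL-33. In these fits the lone library is assumed to vary like those of the other group, which alone supplies the spread. A smaller pseudocount (0.1), no minimum, no trend and limma-voom each left 0 calls among all genes they tested, while the log2 fold change of *Psmc1*, for example, was 2.25, 2.22, 2.22 and 2.14. Quantile, median-of-ratios and 45S-free scaling left 2, 1 and 1 calls among the members, where 1.55%, 0.893% and 0.788% of all genes were called in that direction. The 48 members varied less between libraries of a group than genes at large did. After IL-33 the median absolute log2 difference between replicates was 0.16 over the members and 0.23 over all genes. After chronic HDM it was 0.25 and 0.57. This comparison was not matched for RNA level. The median RPKM of the 50 members was 154 and 140 in IL-33 libraries, against 13.5 and 14.2 over all genes tested. In HDM libraries it was 69.8 and 57.9, against 12.9 and 11.7.

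**Figure D1:**
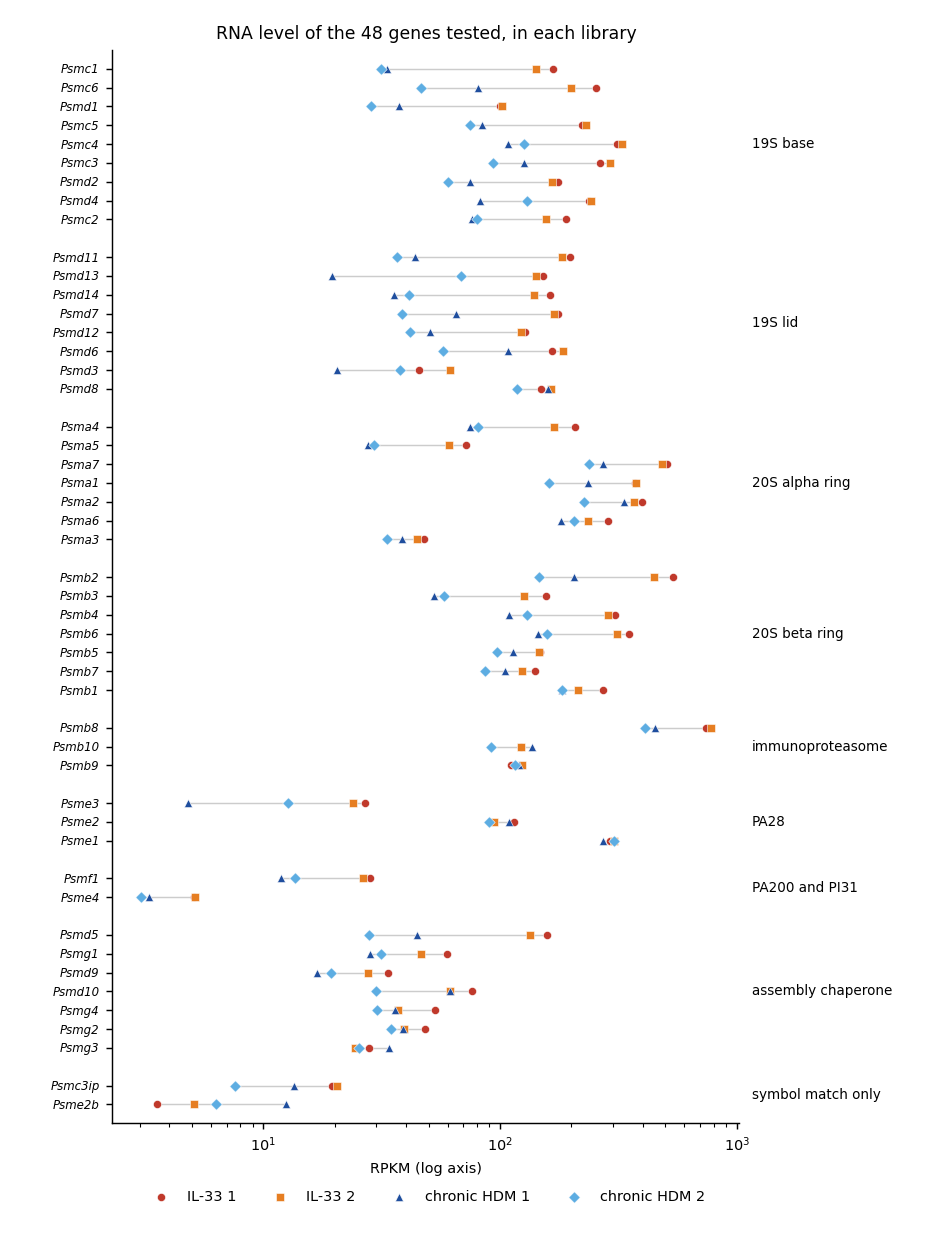
RPKM of the 48 tested genes in each of the 4 libraries on a log axis, grouped by sub-complex and sorted by fold change, with a grey line over the range of each gene. For the 19S base, both IL-33 libraries lie to the right of both HDM libraries in 9 of 9 genes (41.7% of all genes tested), whereas the symbols of Psmb9, Psme1 and Psme2 overlap.

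Genes of the 19S cap were higher after IL-33 in both the base and the lid. Its 17 genes summed to 3060.3 ± 54.8 RPKM after IL-33 and 1158 ± 67.9 RPKM after chronic HDM (SD, n = 2 each), a 2.64-fold difference, and the median of their log2 fold changes was 1.46. By limma, 5 of the 17 were called, against 2.8% of all genes tested. At an adjusted p under 0.05, with the same limit on the fold, 13 were higher after IL-33, against 13.8% of all genes. Both IL-33 libraries exceeded both HDM libraries for 16 of the 17, the exception being *Psmd8*, against 41.7% of all genes tested.

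Within the base, 6 genes encode the ATPases of the ring that unfolds the substrate. *Psmc1* (chr12:100112331-100123364, mm10) had 167 and 142 RPKM in IL-33 libraries, against 33.3 and 31.3 RPKM in HDM libraries, a log2 fold change of 2.22 ± 0.21 (SE, adjusted p = 0.0069, limma). The libraries of each group lay close together, and the log2 fold change was the highest of the base. *Psmc4* had 313 and 329 RPKM in IL-33 libraries, against 108 and 126 RPKM in HDM libraries (log2 fold change 1.46 ± 0.17, adjusted p = 0.0093, limma). *Psmc5* had 221 and 230.2 RPKM in IL-33 libraries, against 83.7 and 74.5 RPKM in HDM libraries (1.50 ± 0.18, adjusted p = 0.0094, limma). These 3 ATPases were the called genes of the base.

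The other ATPases pointed the same way without being called. *Psmc6* had 254 and 200.3 RPKM in IL-33 libraries, against 80.8 and 46.5 RPKM in HDM libraries (log2 fold change 1.86, adjusted p = 0.018, limma), and *Psmc2*, the lowest fold of the base at 1.12 (adjusted p = 0.019), had 189.9 and 156 RPKM in IL-33 libraries, against 76.4 and 80.3 RPKM in HDM libraries. The scaffold subunits *Psmd1* and *Psmd2*, which bind ubiquitin-like domains and shuttle factors, had log2 fold changes of 1.60 and 1.33. The ubiquitin receptor *Psmd4* had 238 and 242 RPKM in IL-33 libraries, against 82.2 and 129 RPKM in HDM libraries (1.21, adjusted p = 0.030), so that its HDM libraries differed from each other more than its IL-33 libraries did.

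The lid holds the enzyme that removes ubiquitin chains before degradation, *Psmd14*, and the structural subunits around it. *Psmd14* had 163 and 139 RPKM in IL-33 libraries, against 35.7 and 41.1 RPKM in HDM libraries (log2 fold change 1.95 ± 0.22, adjusted p = 0.0079, limma). *Psmd11*, a scaffold of the lid that contacts the core (chr11:80428615-80472133), had 198 and 183 RPKM in IL-33 libraries, against 43.6 and 36.6 RPKM in HDM libraries, the highest log2 fold change among the members at 2.23 ± 0.21 (adjusted p = 0.0069, limma). Both genes kept the IL-33 libraries well clear of the HDM libraries. In *Psmd13* the groups did not overlap either but the HDM libraries disagreed, with 152 and 141 RPKM after IL-33, against 19.6 RPKM in HDM replicate 1 and 68.4 RPKM in HDM replicate 2 (1.97 ± 0.56, adjusted p = 0.064), and its log2 fold change was 1.09 without HDM replicate 1 and 2.84 without HDM replicate 2.

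*Psmd8* was the one cap subunit whose groups overlapped, with 149 and 164 RPKM in IL-33 libraries, against 159 and 118 RPKM in HDM libraries (log2 fold change 0.19, adjusted p = 0.57, and -0.36 to -0.04 under 3 other scalings). *Psmd3*, the second lowest of the lid, had 45.2 and 61.4 RPKM in IL-33 libraries, against 20.4 and 37.9 RPKM in HDM libraries (0.90, adjusted p = 0.15). The remaining lid genes *Psmd6*, *Psmd7* and *Psmd12* had log2 fold changes of 1.13, 1.76 and 1.42. The small lid subunit that the symbol rule does not reach, *Shfm1* (also *Sem1*), differed in the other direction, with 110 and 91.3 RPKM in IL-33 libraries, against 241 and 234 RPKM in HDM libraries (-1.24 ± 0.19, adjusted p = 0.013, limma). No other gene of the cap had lower values in both IL-33 libraries.

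**Figure D2:**
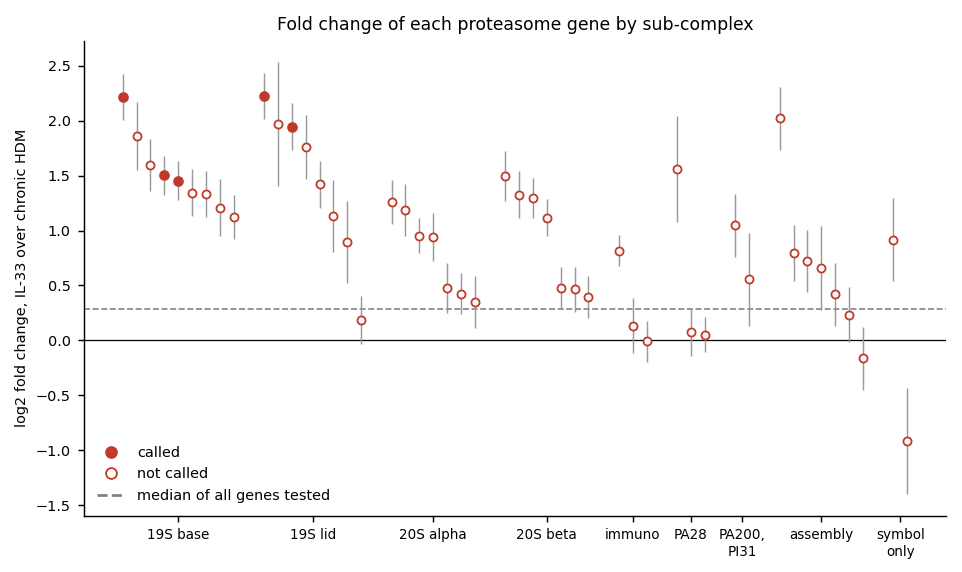
Log2 ratio of IL-33 to chronic HDM with its standard error for each tested gene, by sub-complex, with filled circles for called genes and a dashed line at 0.28, which is the median over all genes. The 5 filled circles lie in the 19S base and lid, and Psmb9, Psmb10, Psme1 and Psme2 lie below the dashed line, at -0.01 to 0.13 as plotted, where quantile, median-of-ratios and 45S-free scaling turn the last 3 of these genes negative.

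The starts of the cap genes were then searched for short motifs, since many of these genes were higher together. RefSeq promoter windows (GRCm38.p6, 250 bases before to 50 after the start) could be placed within 100 bases of the start in the files for 41 of the 50 members. The letters CCGGAAG, the core of sites of ETS factors, were found on either strand in 14 of the 41 windows, or 34.1%, against 12.2% of the windows of all 16615 genes and 22.7% of those of the 6977 tested genes that had one. They stood in 8 of 13 windows of the cap, in 1 of 11 of the constitutive core and in 0 of 5 of the inducible subunits with *Psme1* and *Psme2*. Of the 4 called genes that had a window, *Psmd11* alone held them. The GC box (GGGCGG) stood in all 4, in 10 of 13 windows of the cap and in 5 of 11 of the constitutive core. Over the members it stood in 23 of 41 windows, or 56.1%, against 66.5% of the windows of tested genes. In *Psme4* the ETS match overlapped a GC box. The motifs were chosen after the values had been seen, and a match describes the sequence only. Of the 8 cap genes with the ETS letters, *Psmd2*, *Psmd4*, *Psmd6* and *Psmd13* are not shown. The stretches of the other 4 are printed below as examples on the strand of the gene, with the ETS letters in capitals (CTTCCGG where the match is on the other strand).
Psmd11 (chr11:80428592-80428621, plus strand): gcgagggcgggtCTTCCGGgtgtgtgtttc
Psmc6 (chr14:45329712-45329741, plus strand): gaggcgggccagCCGGAAGgggcggagcca
Psmd12 (chr11:107479499-107479528, plus strand): atgagcgggcgaCTTCCGGtgcgagtgacg
Psmc2 (chr5:21785179-21785208, plus strand): gaccagtgagcaCTTCCGGgatggggctcg

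Through the antioxidant response element, the factor encoded by *Nfe2l1* raises proteasome genes when proteasome activity is low. A loose form of the core of this element, TGANNNNGC, was found in 23 of the 41 members' windows, or 56.1%. It stood in 41.8% of all windows and in 43.5% of those of tested genes. Among the members it was found in 5 of 13 windows of the cap and 8 of 11 of the constitutive core. In 5 members, *Psma4*, *Psmb9*, *Psmd5*, *Psmd9* and *Psmg4*, it overlapped a GC box, and in *Psmg1* a gamma-activated site. *Nfe2l1* itself had 29.5 and 31.1 RPKM in IL-33 libraries, against 22.1 and 31.8 RPKM in HDM libraries, which overlap (log2 fold change 0.19, adjusted p = 0.69, limma).

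The constitutive 20S core was higher after IL-33 as well, by less than the cap. Its 14 genes summed to 3592 ± 292 RPKM after IL-33 and 1954 ± 171 RPKM after chronic HDM, a 1.84-fold difference. All 14 had both IL-33 libraries above both HDM libraries, against 41.7% of all genes tested, and 0 were called by limma. Of the 14, 9 had an unadjusted p under 0.05, all higher after IL-33, beside 3499 of all 9523 genes in either direction. The sum of the core over that of the cap was 1.23 and 1.12 in IL-33 libraries, against 1.72 and 1.65 in HDM libraries.

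In the alpha ring, which gates the entrance to the barrel, log2 fold changes ran from 0.35 to 1.26 with a median of 0.94. *Psma4* led with 207 and 169 RPKM in IL-33 libraries, against 74.3 and 80.6 RPKM in HDM libraries (1.26, adjusted p = 0.015, limma), followed by *Psma5* with 71.9 and 61.1 RPKM in IL-33 libraries, against 27.7 and 29.5 RPKM in HDM libraries (1.18). *Psma3* and *Psma6* were lowest at 0.35 and 0.43, both of which turn negative with quantile normalization. *Psma7*, the gene of the ring with the highest mean RPKM over the 4 libraries, had 507 and 481 RPKM in IL-33 libraries, against 273 and 237 RPKM in HDM libraries. In HDM replicate 1 *Psma2* was above it, at 333 RPKM. The log2 fold change of *Psma2* was 0.48 and also turned negative with quantile normalization (-0.096). *Psma6* shares its span with the microRNA gene *Mir1198*, so that the reads of the 2 cannot be fully separated.

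The beta ring carries the proteolytic sites, and its subunits had either log2 fold changes above 1 or below 0.5. *Psmb2* had 539 and 445 RPKM in IL-33 libraries, against 205 and 146 RPKM in HDM libraries (log2 fold change 1.50, adjusted p = 0.013, limma). *Psmb3* and *Psmb4*, like *Psmb2* without a catalytic site, had log2 fold changes of 1.33 and 1.30. *Psmb6*, the caspase-like site, had 350.0 and 311 RPKM in IL-33 libraries, against 145 and 159 RPKM in HDM libraries (1.12, adjusted p = 0.014, limma).

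The other catalytic subunits differed less. *Psmb5*, the chymotrypsin-like site, had 147 and 145 RPKM in IL-33 libraries, against 114 and 96.7 RPKM in HDM libraries (log2 fold change 0.48, adjusted p = 0.13, limma), and *Psmb7*, the trypsin-like site, had 141 and 123 RPKM in IL-33 libraries, against 105 and 86.7 RPKM in HDM libraries (0.46, adjusted p = 0.17). *Psmb1* had 0.39. All 3 turn negative with quantile normalization, to -0.14 at the lowest. *Psmb5* overlaps the microRNA gene *Mir686* on the same strand.

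The immunoproteasome subunits were abundant in both groups and only 1 of the 3 was higher after IL-33 without overlap, beside 41.7% of all genes tested. *Psmb8* (chr17:34198195-34201454), the inducible chymotrypsin-like site and in each library the member with the highest RPKM, had 742 and 778 RPKM in IL-33 libraries, against 452 and 409.7 RPKM in HDM libraries (log2 fold change 0.82 ± 0.14, adjusted p = 0.018, limma). *Psmb9* (chr17:34182099-34187330), the inducible subunit in the place of *Psmb6*, had 111 and 124 RPKM in IL-33 libraries, against 119.7 and 116 RPKM in HDM libraries (-0.01 ± 0.18, adjusted p = 0.98). *Psmb10* (chr8:105935728-105938392), the inducible trypsin-like site, had 123 and 123 RPKM in IL-33 libraries, against 136 and 91.8 RPKM in HDM libraries (0.13 ± 0.25, adjusted p = 0.73, negative under quantile, median-of-ratios and 45S-free scaling). For *Psmb9* and *Psmb10* the HDM values lay on both sides of, or among, the IL-33 values. limma called 0 of the 3, and 1 of them had an unadjusted p under 0.05.

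Ratios between an inducible subunit and the constitutive subunit whose place it takes are free of any scaling factor that applies to a whole library. *Psmb9* over *Psmb6* was 0.317 and 0.399 in IL-33 libraries, against 0.827 and 0.732 in HDM libraries, a difference of -1.13 in the log2 ratio (exact permutation test, two-sided, p = 0.333, which is the smallest p that 2 against 2 libraries allow). *Psmb10* over *Psmb7* was 0.874 and 0.996 in IL-33 libraries, against 1.30 and 1.06 in HDM libraries (log2 difference -0.33). *Psmb8* over *Psmb5* differed in the other direction, with 5.06 and 5.35 in IL-33 libraries, against 3.98 and 4.24 in HDM libraries (0.34). In these 3 pairs the libraries of the groups did not overlap, and the exact p was 0.333 in each.

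**Figure D3:**
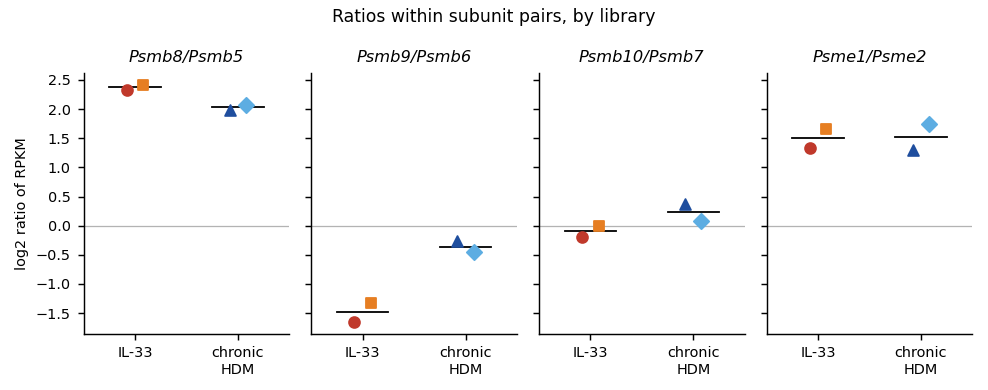
Log2 ratio of RPKM within 4 pairs of subunits in each library (symbols as in the plot of RPKM, IL-33 to the left of chronic HDM in each panel), with a black bar at the mean of each group. Psmb9/Psmb6 is lower in both IL-33 libraries by 1.13 on average, Psmb8/Psmb5 is higher by 0.34, and Psme1/Psme2 overlaps between the groups.

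Summed over the 6 catalytic subunits, the inducible ones made up 60.5% and 63.9% of the RPKM in IL-33 libraries, against 66.1% and 64.4% in HDM libraries, and, when *Psmb8* was left out, 26.8% and 29.9% in IL-33 libraries, against 41.4% and 37.8% in HDM libraries. *Psmb8* thus held the larger part of the inducible RNA in every library. The 5 subunits induced by interferon-γ (these 3 with *Psme1* and *Psme2*) summed to 1402 ± 28.8 RPKM after IL-33 and 1049 ± 55.5 RPKM after chronic HDM. Their sum over that of the 31 constitutive core and cap genes was 0.200 and 0.222 in IL-33 libraries, against 0.332 and 0.343 in HDM libraries.

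*Psmb9* and *Psmb8* lie in the MHC class II region next to *Tap1* and *Tap2*, which encode the transporter that carries proteasome products into the endoplasmic reticulum. *Psmb9* and *Tap1* are read in opposite directions from starts 225 bases apart, and these bases are shown since the 2 genes had unlike log2 fold changes, a difference that was not tested. *Tap1* had 160.04 and 195 RPKM in IL-33 libraries, against 68.1 and 75.5 RPKM in HDM libraries (log2 fold change 1.29, adjusted p = 0.015, limma), beside -0.01 for *Psmb9*. *Tap2* overlapped between groups (0.03, adjusted p = 0.96). The stretch is given on the plus strand, from the base next to the start of *Psmb9* to the base next to that of *Tap1*, with 1 CCAAT box (CCAAT) and 1 GC box (GGGCGG, here CCGCCC on this strand) in capitals. Of all 16615 windows, 38.7% hold CCAAT and 46.9% hold GGGCGG on either strand.
Psmb9 to Tap1 (chr17:34187331-34187555, plus strand): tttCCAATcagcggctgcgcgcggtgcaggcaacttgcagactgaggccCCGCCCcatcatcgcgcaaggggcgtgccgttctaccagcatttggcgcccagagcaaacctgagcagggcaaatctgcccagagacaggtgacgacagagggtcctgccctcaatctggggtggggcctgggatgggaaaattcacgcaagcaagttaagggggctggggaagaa

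The letters TTCNNNGAA, the core of the gamma-activated site, were found in 3 of the 41 members' windows (7.32%, against 8.21% of all windows), those of *Psmb8*, *Psmd2* and *Psmg1*. The match of *Psmb8* lies 97 bases before its start and is shown as the one match among the inducible subunits, in capitals.
Psmb8 (chr17:34198087-34198116, plus strand): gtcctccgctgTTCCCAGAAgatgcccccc

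Both subunits of the interferon-induced PA28 stood at much the same level in the groups. *Psme1* had 291 and 303 RPKM in IL-33 libraries, against 271 and 303 RPKM in HDM libraries, and *Psme2* had 115 and 94.7 RPKM in IL-33 libraries, against 109 and 89.9 RPKM in HDM libraries, with overlap in both. Their log2 fold changes of 0.05 and 0.07 (adjusted p = 0.84 for each, limma) turn negative with quantile, median-of-ratios and 45S-free scaling and with limma-voom. The 2 genes are neighbours on chromosome 14, and *Psme1* over *Psme2* was 2.53 and 3.20 in IL-33 libraries, against 2.48 and 3.36 in HDM libraries (log2 difference -0.02, exact permutation p = 1). *Psme3*, which forms a nuclear activator of its own, had 26.8 and 23.9 RPKM in IL-33 libraries, against 4.81 and 12.7 RPKM in HDM libraries, where the 2 libraries differed widely (1.56 ± 0.48, adjusted p = 0.076). Its log2 fold change was 0.94 without HDM replicate 1 and 2.18 without HDM replicate 2. limma called 0 of these 3 genes, with 1 at an unadjusted p under 0.05.

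Of the remaining regulators, *Psme4*, the nuclear activator PA200, was low, with 5.11 and 5.13 RPKM in IL-33 libraries, against 3.30 and 3.04 RPKM in HDM libraries (log2 fold change 0.56, adjusted p = 0.39, limma). *Psmf1*, the proteasome inhibitor PI31, had 28.2 and 26.4 RPKM in IL-33 libraries, against 11.9 and 13.6 RPKM in HDM libraries (1.05, adjusted p = 0.057). Neither was called, although in both genes the groups did not overlap.

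Assembly chaperones guide the building of the core and the cap. *Psmd5*, a chaperone of the base, differed most, with 158 and 134 RPKM in IL-33 libraries, against 44.4 and 27.9 RPKM in HDM libraries (log2 fold change 2.02 ± 0.29, adjusted p = 0.012, limma). The other base chaperones *Psmd9* and *Psmd10* had 0.72 and 0.66. Among the chaperones of the core, *Psmg1* had 59.6 and 46.2 RPKM in IL-33 libraries, against 28.3 and 31.4 RPKM in HDM libraries (0.80, adjusted p = 0.086), *Psmg4* had 0.42, *Psmg2* had 0.24 (negative with quantile and 45S-free scaling) and *Psmg3* had -0.16 with overlapping groups. Of the 7, limma called 0 and 3 had an unadjusted p under 0.05. The genes matched by symbol only were *Psmc3ip*, at 0.92 (adjusted p = 0.15), and *Psme2b*, which had 3.54 and 5.08 RPKM in IL-33 libraries, against 12.5 and 6.28 RPKM in HDM libraries (-0.92, adjusted p = 0.23).

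Genes that work with the proteasome but lie outside the symbol rule were examined as lists. Of 15 tested cofactors, 1 was called higher after IL-33, *Uchl5*, a deubiquitinase that binds the cap, with 95.7 and 84.1 RPKM in IL-33 libraries, against 15.6 and 17.4 RPKM in HDM libraries (log2 fold change 2.38 ± 0.24, adjusted p = 0.0072, limma). *Adrm1*, the ubiquitin receptor that anchors it, had 23.1 and 21.2 RPKM in IL-33 libraries, against 6.53 and 10.4 RPKM in HDM libraries (1.32, adjusted p = 0.055), and *Pomp*, the maturation factor of the core, had 342 and 285 RPKM in IL-33 libraries, against 92.9 and 173 RPKM in HDM libraries (1.29, adjusted p = 0.045). The median of the cofactors was 0.33, near that of all genes. None was called higher after chronic HDM by limma, and 1, *Shfm1*, had an unadjusted p under 0.05 in that direction.

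Of 6 ubiquitin and E1 enzyme genes, 1 was called, the polyubiquitin gene *Ubb*, with 919 and 972 RPKM in IL-33 libraries, against 358 and 295 RPKM in HDM libraries (log2 fold change 1.54 ± 0.16, adjusted p = 0.0072, limma). The ubiquitin fusion gene *Rps27a* stood at -0.36. Among 11 genes of p97, the ATPase that extracts ubiquitinated proteins, limma called 0 (5 at an unadjusted p under 0.05, all higher after IL-33). *Vcp*, which encodes p97, had 65.6 and 61.4 RPKM in IL-33 libraries, against 22.0 and 23.8 RPKM in HDM libraries (1.43, adjusted p = 0.016), and the adaptors of highest RPKM, *Ubxn1* and *Derl1*, had 0.36 and 0.84.

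Among 7 tested regulators of proteasome genes limma called 0, with an unadjusted p under 0.05 for 2 genes upward and 1 downward after IL-33. Their most abundant genes were *Nfe2l2*, an oxidative stress factor with 32.2 and 29.5 RPKM in IL-33 libraries, against 72.1 and 26.5 RPKM in HDM libraries (log2 fold change -0.49, adjusted p = 0.51), and *Ngly1*, which processes the *Nfe2l1* product (0.16). Among 13 regulators of the immunoproteasome genes limma called 0 as well, with an unadjusted p under 0.05 for 2 genes upward and 3 downward after IL-33. The most abundant, the receptor chain *Ifngr1* and the kinase *Jak1*, had log2 fold changes of 0.29 and 0.11 with overlapping groups. *Irf1*, a transcription factor induced by interferon-γ, had 55.7 and 57.5 RPKM in IL-33 libraries, against 109 and 87.9 RPKM in HDM libraries (-0.78, adjusted p = 0.060), and *Ifngr2*, a chain of the interferon-γ receptor, had 22.1 and 22.9 RPKM in IL-33 libraries, against 86.4 and 53.8 RPKM in HDM libraries (-1.56, adjusted p = 0.025).

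A list of 12 genes joined MHC class I and its peptide supply with chaperones of the endoplasmic reticulum. Of these 12, 5 were higher after IL-33 at an adjusted p under 0.05 (with the limit on the fold), against 13.8% of all genes. *Tap2*, *Tapbp*, *Tapbpl* and *Erap1* were not among the 5. The 1 called was the general chaperone *Hspa5*, with 865 and 756 RPKM in IL-33 libraries, against 205 and 208 RPKM in HDM libraries (log2 fold change 1.96 ± 0.15, adjusted p = 0.0069, limma). *Calr*, a chaperone of the loading complex, had the largest difference of the list, with 245 and 233 RPKM in IL-33 libraries, against 14.2 and 44.3 RPKM in HDM libraries (3.19, adjusted p = 0.015), and *Pdia3*, *Canx* and *Tap1* had log2 fold changes of 1.34, 1.003 and 1.29. *B2m*, the light chain of MHC class I, had 3364 and 2846 RPKM in IL-33 libraries, against 5370.3 and 5626 RPKM in HDM libraries (-0.83, adjusted p = 0.013). The heavy chain genes *H2-K1* and *H2-D1* had -0.14 and -0.01. All 10 proliferation markers, by contrast, were higher in both IL-33 libraries, against 41.7% of all genes tested, and 8 were called, against 2.8%. The sums of these markers were 683 and 723 RPKM in IL-33 libraries, against 44.0 and 30.4 RPKM in HDM libraries. Their part in the difference of the proteasome genes was not tested.

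The number of members that were higher depended on the scaling of the libraries. The median of all genes moved by -0.21 on the log2 scale with median-of-ratios scaling, by -0.29 with quantile normalization and by -0.26 with scaling that leaves out 45S, an alternative chosen after seeing the data. Of the 48 members, 45 were positive and 3 negative as deposited, 41 and 7 with median of ratios, 40 and 8 without 45S, and 34 and 14 with quantile normalization. Taken relative to the median of all genes under the same scaling, 40 members lay above it as deposited, with median of ratios and without 45S, and 34 with quantile normalization. The cap had 16 of 17 genes above that median under each of these scalings, the constitutive core 14 of 14 except with quantile normalization (8 of 14), and the 5 inducible genes 1 of 5, *Psmb8*.

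**Figure D4:**
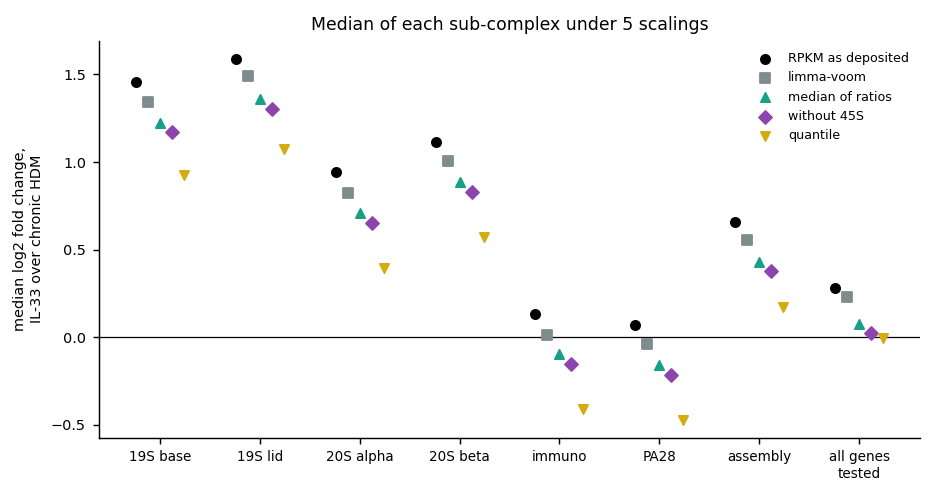
Median log2 ratio of IL-33 to chronic HDM for each sub-complex and of all genes tested under 5 scalings. The medians of the 19S base and lid stay between 0.93 and 1.59, those of both rings between 0.39 and 1.12, and those of the immunoproteasome and PA28 change sign with the scaling, from 0.13 and 0.07 as deposited to -0.41 and -0.47 with quantile normalization.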

How the data were processed

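Smart-seq2 libraries were sequenced by the authors as single 51-bp reads and placed on mm10 by HISAT2, whose version is 2.0.4 according to the submitters' processing notes. The deposited RPKM values came from HOMER, per the file headers counted over the exons of 1 RefSeq transcript per gene from uniquely placed reads, scaled to 10000000 reads before the RPKM step, with no strand option named, so that reads of overlapping genes could not be told apart. The authors named DESeq2 for their own test. The RPKM values were used as they are and transformed as log2(RPKM + 1), and understate the change of low genes. Depth was recovered from the step that 1 read makes: 99.0% to 99.9% of the values above 0 were whole reads within 0.1 of a read.

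limma 3.58.1 (R 4.3.3) was fitted to the 9523 genes whose mean reached 2 RPKM (intensity trend, two-sided, Benjamini-Hochberg adjustment over all of them), and the procedure was tested on simulated data. Groups came from the labels. Replicate numbers of the groups were treated as unrelated, since nothing ties them. Named were the catalytic subunits, *Psme1* to *Psme4* and *Psmf1*, every called member, the 2 highest and 2 lowest of each other sub-complex, and, of the related lists, called genes and otherwise the 2 of highest mean RPKM. Other members and related genes were named after their values were seen. The members and lists were chosen with earlier results of these data known. Of the listed symbols, 1 T cell gene, 1 p97 adaptor and 3 cofactor names had no match, and older names were used where they had one. Single ratios were compared by exact permutation (scipy 1.17.1), promoter sequences came from RefSeq (GRCm38.p6), and figures were drawn with matplotlib 3.10.9. Alternatives covered the pseudocount (0.1 and 2), the minimum (none and 5 RPKM), quantile and median-of-ratios scaling, robust variances, no trend in limma, limma-voom on the recovered reads, a replicate block, the thresholds and leaving out each library.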

Additional observations from a re-analysis of the deposited data

How the results depend on the processing

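The count of 5 members called higher after IL-33 was 0 in 4 alternatives (no minimum, no trend, limma-voom, and 0.1 as pseudocount), each of which called 0 of all genes tested. It was 1 with median-of-ratios scaling and 1 without 45S (both *Psmd11*, beside 0.893% and 0.788% of all genes), 2 with quantile normalization (1.55%), 13 with a minimum of 5 RPKM (6.72%) and 20 at an adjusted p under 0.05 (13.8%). It ranged from 0 to 23 when 1 library was left out, where 0 to 19.7% of all genes were called and the spread came from the other group alone. With the replicate number as a block it was 20, beside 10.4% of all genes, but the deviations of same-numbered libraries correlated at -0.04 over only 2 pairs, so the libraries share a number and no known pairing. The cause of these changes was not tested.

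Medians moved as follows, given for quantile, median-of-ratios and 45S-free scaling in this order: all members 0.58, 0.77 and 0.72, the alpha ring 0.39, 0.71 and 0.65, the beta ring 0.57, 0.88 and 0.83, the base 0.93, 1.22 and 1.17, the lid 1.07, 1.36 and 1.31, the immunoproteasome -0.41, -0.10 and -0.15, and PA28 -0.47, -0.16 and -0.21. The assembly chaperones had 0.17 with quantile and 0.38 with 45S-free scaling. With limma-voom the base had 1.34, the lid 1.49, the immunoproteasome 0.015 and PA28 -0.041. With 1 library left out the medians ranged from 0.67 to 1.05 in the alpha ring, 1.42 to 1.57 in the base, 1.36 to 1.62 in the lid, -0.030 to 0.42 in the immunoproteasome and 0.30 to 0.81 in the chaperones, and the difference for *Psme1* over *Psme2* from -0.24 to 0.20.

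Signs turned with quantile normalization for *Psma2* (-0.096), *Psma3* (-0.074), *Psma6* (-0.12), *Psmb1* (-0.14), *Psmb5* (-0.065), *Psmb7* (-0.063) and *Psmg2* (-0.19, and -0.046 without 45S). In the same order as above, *Psmb10* had -0.41, -0.10 and -0.15, *Psmd8* -0.36, -0.045 and -0.10, *Psme1* -0.50, -0.18 and -0.24 (-0.068 with limma-voom), and *Psme2* -0.47, -0.16 and -0.21 (-0.041 with limma-voom). With 1 library left out, the range crossed 0 for *Psmb9* (-0.087 to 0.070), *Psmb10* (-0.15 to 0.42), *Psmd8* (-0.026 to 0.40), *Psme1* (-0.028 to 0.13), *Psme2* (-0.066 to 0.21) and *Psmg3* (-0.36 to 0.039). With 2 libraries per group, differences within the spread of replicates could not be resolved, which holds for *Psmb9*, *Psmb10*, *Psme1* and *Psme2*.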
